A study of Mus musculus with 2 samples.

Results

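The CXC chemokines are small secreted proteins that guide leukocytes, and 10 of their genes were followed here in macrophages sorted from injured mouse hearts. They were Cxcl1, Cxcl2, Cxcl3, Pf4, Ppbp, Cxcl9, Cxcl10, Cxcl12, Cxcl13 and Cxcl16, out of 19505 named genes on the arrays. Each was taken as the probe set to which the array platform assigns that single gene symbol, and each had 1 probe set. The study sorted macrophage populations from hearts after ischemia–reperfusion (IR), in which a coronary artery is closed for a time and blood flow then returns, and profiled them on Clariom S mouse arrays. There was 1 array of MHCII+ macrophages and 1 array of MerTK− macrophages. Both populations came from wild-type C57BL/6 male mice aged 10 weeks, and both were taken after IR from a gate of CD45+CD11b+ cells. Cells of several hearts were pooled for an array, and the time between IR and sorting is not given for these arrays in the sources used here. MHCII is the class II complex that presents antigen, and MerTK is a receptor with which macrophages take up dead cells. The methods do not say whether the MHCII+ cells were also gated on MerTK. Trem2+ and Lyve1+ macrophages were not analysed here.

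CXC chemokines bind receptors on the surface of other cells and are sorted by receptor. Cxcl1, Cxcl2 and Cxcl3 act through CXCR2 and draw neutrophils to injured tissue. Cxcl9 and Cxcl10 act through CXCR3 and draw activated T cells and natural killer cells. Pf4 (platelet factor 4) and Ppbp (pro-platelet basic protein) are best known from the granules of platelets and their parent cells, the megakaryocytes, and peptides cut from Ppbp bind CXCR2. Cxcl12 binds CXCR4 and holds blood stem cells and leukocytes in the marrow, Cxcl13 binds CXCR5 and attracts B cells, and Cxcl16 is made on the cell surface, binds CXCR6 and is shed by proteases.

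The stretches of DNA before the start sites are shown first, because several of these genes lie side by side on chromosome 5 but did not differ in the same direction. Sequences are those of RefSeq on GRCm38.p6, which held 9 of the 10 genes. Only bases before the start were searched, 250 for each gene and on both strands. The last 100 bases before the start of the CXCR2 ligand genes, given below, each held the letters GGAATTTCC, a form of the site that NF-κB binds, shown in capitals.
Cxcl1, chr5:90891145-90891244, + strand: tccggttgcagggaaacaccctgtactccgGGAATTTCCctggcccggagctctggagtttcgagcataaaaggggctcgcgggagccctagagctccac
Cxcl2, chr5:90903799-90903898, + strand: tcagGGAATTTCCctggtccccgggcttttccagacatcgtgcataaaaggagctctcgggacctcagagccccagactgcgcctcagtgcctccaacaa
Cxcl3, chr5:90786001-90786100, + strand: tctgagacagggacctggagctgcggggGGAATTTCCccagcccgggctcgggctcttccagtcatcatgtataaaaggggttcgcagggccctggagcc

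The match began 70 bases before the start in Cxcl1, 96 in Cxcl2 and 72 in Cxcl3. GGAATTTCC was present in 0.286% of the 32851 promoters of the table, 94 in all. The last 100 bases before Pf4 and Ppbp, the members with the widest gaps between the arrays, did not hold these letters and are shown for contrast. Their capitals mark CACTTCC, the reverse of GGAAGTG, a core letter run of sites bound by ETS factors. GGAAGTG was present in 8.55% of all promoters.
Pf4, chr5:90772335-90772434, + strand: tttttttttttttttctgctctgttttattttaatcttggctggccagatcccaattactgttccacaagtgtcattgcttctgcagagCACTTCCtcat
Ppbp, chr5:90768418-90768517, + strand: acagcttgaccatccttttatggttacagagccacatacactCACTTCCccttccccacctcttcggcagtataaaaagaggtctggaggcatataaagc

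The CXCR3 ligand genes are shown over all 250 bases, because both hold GAAANNGAA, part of the response element through which interferons act. It was present in 7.13% of all promoters. Capitals mark it and GGNNTTTCC, a looser form of the NF-κB site that was present in 4.93% of all promoters and that overlaps the stricter one by construction.
Cxcl9, chr5:92328080-92328329, - strand: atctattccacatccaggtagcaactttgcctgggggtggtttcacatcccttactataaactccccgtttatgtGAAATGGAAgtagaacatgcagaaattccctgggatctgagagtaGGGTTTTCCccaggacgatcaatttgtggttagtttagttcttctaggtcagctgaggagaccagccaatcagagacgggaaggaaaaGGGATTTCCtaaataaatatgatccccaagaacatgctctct
Cxcl10, chr5:92348890-92349139, - strand: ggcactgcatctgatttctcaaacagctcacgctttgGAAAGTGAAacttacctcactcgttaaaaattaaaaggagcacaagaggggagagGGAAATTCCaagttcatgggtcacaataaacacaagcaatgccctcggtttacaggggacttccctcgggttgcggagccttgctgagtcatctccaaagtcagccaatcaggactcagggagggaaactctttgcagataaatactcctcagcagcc

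In Cxcl10 the capitals nearer the start are the stricter site on the reverse strand, read there as GGAAATTCC and beginning 158 bases before the start. Cxcl9 held the looser form in 2 places, beginning 130 and 42 bases before the start. GGAATTTCC was thus found in Cxcl1, Cxcl2, Cxcl3 and Cxcl10, and its letters were not in the windows of Pf4, Ppbp, Cxcl9, Cxcl12 or Cxcl13. A match of letters describes the sequence and does not show that a factor was bound.

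All 10 genes were above the floor on at least 1 array, and 8 were above it on both. The floor is the level below which 95% of sensory receptor genes lay (1452 probe sets for smell, pheromones and taste), and it was 4.23 for the MHCII+ array and 4.67 for the MerTK− array. Values are the deposited log2 intensities, and a difference is the log2 value of MHCII+ macrophages minus that of MerTK− macrophages. A gene above the floor is called MHCII+-enriched or MerTK−-enriched where its deposited value there was at least 2-fold that of the other population, the fold that the study's methods use. With 1 array a population there is no spread between replicates, so no test could be run and every fold below compares these arrays only.

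Pf4, Ppbp, Cxcl13 and Cxcl16 were MHCII+-enriched, which was 4 of 10 members, against 13.4% of the 10521 genes above the floor. Cxcl2, Cxcl3 and Cxcl12 were MerTK−-enriched, which was 3 of 10 members, against 6.89% of genes. Cxcl1, Cxcl9 and Cxcl10 were less than 2-fold apart. Where values under the floor were set to it, 4 and 3 members were again MHCII+-enriched and MerTK−-enriched, and the shares of all genes were 11.8% and 6.0%. The median difference was 0.65 over the 10 members and 0.15 over all genes above the floor, of which the middle 50% lay between -0.34 and 0.64. In sorted bulk cells, fewer cells of a type and less RNA per cell cannot be told apart.

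**Figure D1:**
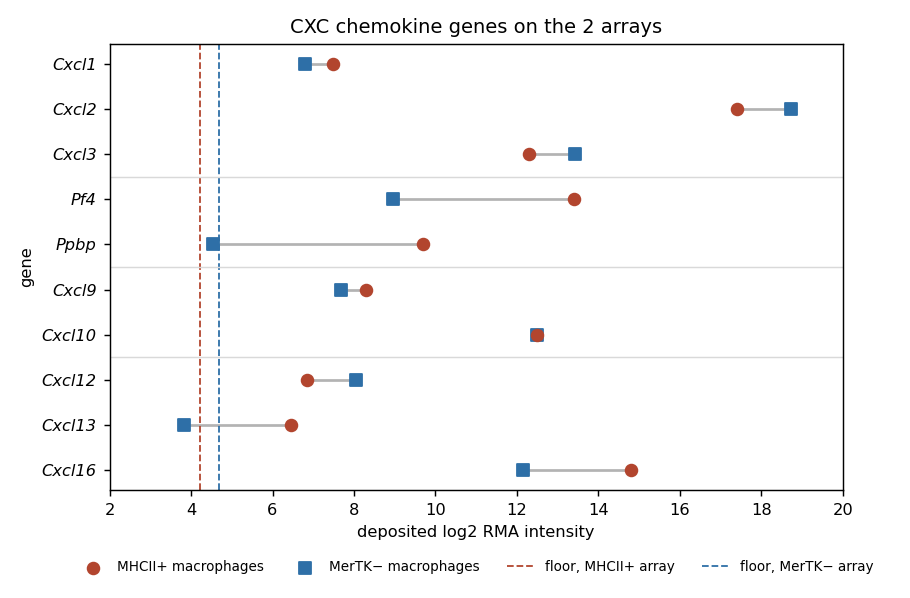
Deposited log2 RMA intensity of each of the 10 genes (horizontal axis) in MHCII+ macrophages (circles) and MerTK− macrophages (squares), 1 array each, with the floor of each array as a dashed line. Pf4 and Ppbp have the widest gaps, Cxcl10 has almost none, and the MerTK− values of Ppbp and Cxcl13 (4.54 and 3.83) lie below that array's floor.

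Pf4 and Ppbp stood far higher in MHCII+ macrophages. Pf4, which binds heparin and is released by activated platelets, was 13.4 in MHCII+ macrophages and 8.95 in MerTK− macrophages. The difference of 4.45 is a 21.8-fold gap, and 15 genes of the 10521 had a larger one. Ppbp, the precursor of β-thromboglobulin and of the neutrophil attractant NAP-2, was 9.69 in MHCII+ macrophages and 4.54 in MerTK− macrophages, where it lay below the floor. Against the floor the gap was at least 32.2-fold towards MHCII+. Its deposited difference of 5.15 takes in a MerTK− value that is not above background. The median difference of the pair was 4.80. With a stricter floor, the 95th percentile of the negative-control probe sets (9.03 for the MHCII+ array and 9.66 for the MerTK− array), the difference of Pf4 was 3.74 and that of Ppbp was 0.02, so the Ppbp call rests on the floor chosen.

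Few of the other genes by which platelets are known shared this direction in the deposited values. Of 20 platelet and megakaryocyte genes listed, 17 were measured and 10 were above the floor. Of these 10, 0 were MHCII+-enriched and 2 (Selp and F2rl2) were MerTK−-enriched. By sign, 2 of the 10 (Itgb3 at 0.14 and Thbs1 at 0.28) were higher and 8 were lower in MHCII+ macrophages, with a median difference of -0.55. The side of that median depends on the scaling, since the hybridization controls had a median difference of -0.93. The levels of the 17 ran between 2.56 and 16.6 in MHCII+ macrophages and between 2.13 and 16.3 in MerTK− macrophages. Itga2b, the αIIb chain of the platelet fibrinogen receptor, was 5.91 in MHCII+ macrophages and 6.64 in MerTK− macrophages. Gp9, part of the receptor for von Willebrand factor, was 4.57 and 5.04 in MHCII+ and MerTK− macrophages. Tubb1, Treml1, Gp5, Gp6 and Gata1 were below the floor on both arrays. Selp, which encodes P-selectin of platelets and endothelium, was 6.78 in MHCII+ macrophages and 9.34 in MerTK− macrophages, a 5.92-fold gap towards MerTK−. Thbs1, made by platelets and by macrophages, was high on both arrays, at 16.6 in MHCII+ and 16.3 in MerTK− macrophages. The part of platelet RNA in the Pf4 and Ppbp values was not tested.

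Genes of resident cardiac macrophages lay on the same side as Pf4 and Ppbp. Of 8 such genes above the floor, 7 were MHCII+-enriched, with a median difference of 4.36. Folr2, a folate receptor, was 10.6 in MHCII+ macrophages and 4.68 in MerTK− macrophages. Mrc1, the mannose receptor CD206, was 14.6 in MHCII+ macrophages and 10.6 in MerTK− macrophages. Cbr2 and Fcrls were 26.8-fold and 49.7-fold higher in MHCII+ than in MerTK− cells. Of 7 general macrophage genes, all 7 were higher in MHCII+ macrophages and 4 were MHCII+-enriched, with a median difference of 2.81, and the complement genes C1qa, C1qb and C1qc were 27.9-fold, 12.6-fold and 24.4-fold apart. Of 7 monocyte genes above the floor, 3 were higher and 4 lower in MHCII+ macrophages, with a median difference of -0.28. Among the 3 was Ccr2, at 16.15 in MHCII+ macrophages and 15.18 in MerTK− macrophages. Dendritic cell genes lay on the side of Pf4 and Ppbp too. Of 6 above the floor, 5 were higher and 1 lower in MHCII+ macrophages, with a median difference of 2.55. The 3 genes nearest to Ppbp in both log2 values were Hpgds at a distance of 0.86, Ccl17 at 0.89 and Folr2 at 0.90. Ccl17 is on the dendritic cell list and Folr2 on the resident macrophage list. The part of macrophages, monocytes or dendritic cells of any kind in the Pf4 and Ppbp values was not tested.

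The CXCR2 ligands did not lie on 1 side. Cxcl2 (MIP-2), a neutrophil attractant that macrophages make early after injury, was 17.4 in MHCII+ macrophages and 18.7 in MerTK− macrophages, which is 2.54-fold higher in MerTK− macrophages. Cxcl3, its close relative, was 12.3 in MHCII+ macrophages and 13.4 in MerTK− macrophages, 2.19-fold higher in MerTK− macrophages. Cxcl1 (KC) was 7.47 in MHCII+ macrophages and 6.79 in MerTK− macrophages, a 1.61-fold gap on the other side. Its values lay below the 95th percentile of the negative controls, so its level was not set apart from array background there. Among all genes above the floor, 316 had a smaller difference than Cxcl2 and 550 a smaller one than Cxcl3. The median difference of the 3 was -1.13. Thus the 3 genes that hold GGAATTTCC close before the start had differences of 0.69 (Cxcl1), -1.34 (Cxcl2) and -1.13 (Cxcl3). The difference of Cxcl1 lay just above the middle 50% of all genes above the floor.

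Neutrophil genes and receptors lay higher in MerTK− macrophages as well. Of 16 neutrophil genes listed, 15 were measured and 13 were above the floor, of which 0 were MHCII+-enriched and 11 were MerTK−-enriched (9 with values set to the floor). Their median difference was -1.54. S100a8, a subunit of calprotectin, was 17.2 in MHCII+ macrophages and 19.0 in MerTK− macrophages, so it was high on both arrays. Csf3r, the receptor for G-CSF, was 16.5 in MHCII+ macrophages and 18.2 in MerTK− macrophages. The receptor gene Cxcr2 itself was 14.72 in MHCII+ macrophages and 15.96 in MerTK− macrophages, a 2.36-fold gap. Cxcr1, a related receptor, was 6.50 in MHCII+ macrophages and 9.07 in MerTK− macrophages, a 5.94-fold gap. The part of neutrophil RNA in the Cxcl2 and Cxcl3 values was not tested. The 3 genes nearest to Cxcl2 in the plane of both log2 values, over 2 arrays only, were S100a8 at a distance of 0.29, S100a11 at 0.35 and Il1b at 0.36.

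A list of genes that NF-κB is known to switch on, or that form the pathway, lay mostly on the side of Cxcl2 and Cxcl3. Of 15 listed, 14 were measured and above the floor, 12 were lower in MHCII+ macrophages, and 4 of these by at least 2-fold. The median difference was -0.73 in the deposited values, against 0.15 over all genes above the floor, of which 6.89% were MerTK−-enriched. Tnf was 15.0 in MHCII+ macrophages and 16.5 in MerTK− macrophages, 2.67-fold higher in MerTK− macrophages. Il1b was 2.10-fold, the inhibitor gene Nfkbia 2.00-fold and Nfkbiz 2.29-fold higher in MerTK− macrophages. No gene of the list was MHCII+-enriched. Cxcl1 and Cxcl10, which also hold GGAATTTCC, had differences of 0.69 and -0.01. The part of NF-κB in the Cxcl2 and Cxcl3 values was not tested. Mmp8 and Mmp9, proteases known to cut CXC chemokines, were 3.38-fold and 4.09-fold apart, both towards MerTK−. Mmp12, a macrophage elastase that can inactivate neutrophil attractants, was 15.2 in MHCII+ macrophages and 10.8 in MerTK− macrophages, a 20.8-fold gap.

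**Figure D2:**
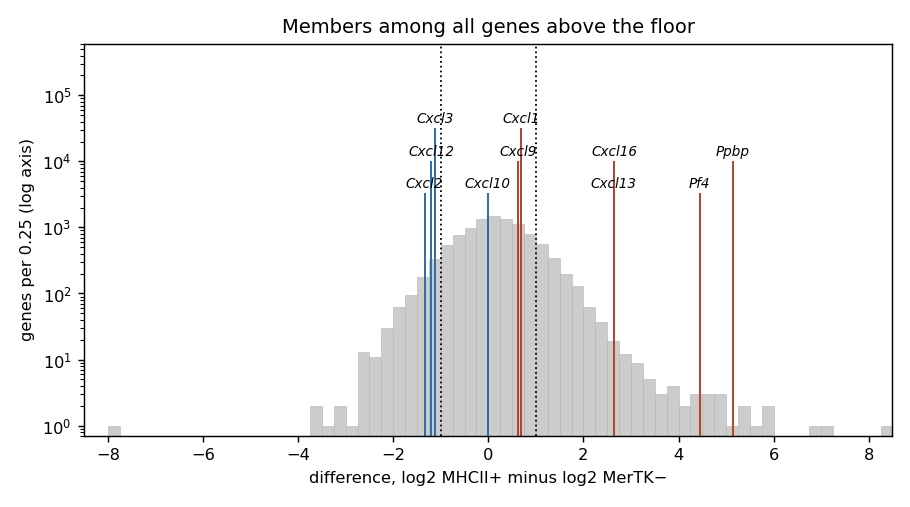
Number of genes above the floor (log axis) for each step of 0.25 in the difference, log2 MHCII+ minus log2 MerTK− (horizontal axis), with the 10 members as vertical lines whose heights carry no value and dotted lines at a 2-fold gap. Pf4 (4.45) and Ppbp (5.15) lie in the far right tail, Cxcl13 and Cxcl16 (2.64 and 2.65) nearly coincide, and Cxcl2, Cxcl12 and Cxcl3 lie between -1.34 and -1.13.

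The CXCR3 ligands differed little between the arrays. Cxcl10 (IP-10) was 12.48 in MHCII+ macrophages and 12.49 in MerTK− macrophages, a difference of -0.01. Cxcl9 (MIG) was 8.31 in MHCII+ macrophages and 7.69 in MerTK− macrophages, a 1.54-fold gap. Both values of Cxcl9 lay below the 95th percentile of the negative-control probe sets, so its level was not set apart from array background by that measure. Their receptor gene Cxcr3 was near the floor, at 5.43 in MHCII+ macrophages and 5.58 in MerTK− macrophages. Cxcl11, a ligand of the same receptor that the NCBI table lists as a transcribed pseudogene, was below the floor on both arrays, at 3.81 in MHCII+ macrophages and 3.80 in MerTK− macrophages.

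Other genes of the interferon-γ response were mostly lower in MHCII+ macrophages in the deposited values. Of 16 listed, 13 were measured and above the floor, 12 were lower in MHCII+ macrophages, and 4 by at least 2-fold, with a median difference of -0.69. Ifng, the interferon itself, was 4.52 in MHCII+ macrophages and 7.65 in MerTK− macrophages, an 8.71-fold gap. Irf1, a transcription factor of this response, was 2.62-fold higher, Socs1, its inhibitor, 2.18-fold higher and Nos2, the inducible nitric oxide synthase, 2.02-fold higher in MerTK− macrophages. Natural killer and T cell genes, which mark the cells that make this interferon, also differed. Gzma, a granzyme, was 5.20 in MHCII+ macrophages and 13.04 in MerTK− macrophages. Of 9 such genes above the floor, 1 was MHCII+-enriched and 6 were MerTK−-enriched. The 1 was Klrd1, at 6.91 in MHCII+ macrophages and 4.21, below the floor, in MerTK− macrophages. That is a gap of at least 4.71-fold towards MHCII+. Of the CD3 genes of the T cell receptor complex, Cd3e and Cd3g were below the floor on both arrays and Cd3d was near it, at 4.46 in MHCII+ macrophages and 4.78 in MerTK− macrophages. Cd4 was 6.00 in MHCII+ macrophages and 5.62 in MerTK− macrophages. The part of these cells in the Cxcl9 and Cxcl10 values was not tested.

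Among the remaining ligands, Cxcl16 and Cxcl13 were higher in MHCII+ macrophages and Cxcl12 was lower. Cxcl16 was 14.8 in MHCII+ macrophages and 12.1 in MerTK− macrophages, a 6.27-fold gap, with 59 genes showing a larger difference. Adam10 and Adam17, the proteases that shed it, were 12.67 and 13.5 in MHCII+ macrophages and 12.73 and 13.3 in MerTK− macrophages, so neither was 2-fold apart. Its receptor gene Cxcr6 was below the floor on both arrays.

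Cxcl13 was 6.46 in MHCII+ macrophages and 3.83 in MerTK− macrophages, where it lay below the floor, which makes it at least 3.45-fold higher in MHCII+ macrophages. Both values lay below the 95th percentile of the negative controls, and against that floor it has no fold. Its receptor gene Cxcr5 was 4.61 in MHCII+ macrophages, just above the floor, and 4.10 in MerTK− macrophages, below it. The B cell genes Cd79b and Ms4a1 were 5.53 and 4.52 in MHCII+ macrophages and 3.33 and 2.79 in MerTK− macrophages, which is a gap of at least 1.82-fold and 1.11-fold towards MHCII+, while Cd79a and Pax5 were below the floor on both arrays. Of 10 dendritic cell genes, 6 were above the floor, of which 3 (Cd209a, Ccl17 and Ccl22) were MHCII+-enriched and 1 (Itgae, 3.78 in MHCII+ and 4.78 in MerTK− macrophages) was MerTK−-enriched, though by at least 1.47-fold only against the floor. Batf3 (0.33) and Ccr7 (0.23) were less than 2-fold apart, and Flt3, Zbtb46, Clec9a and Xcr1 were below the floor on both arrays. The part of these cells in the Cxcl13 value was not tested.

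Cxcl12 was 6.85 in MHCII+ macrophages and 8.06 in MerTK− macrophages, 2.31-fold higher in MerTK− macrophages, and 447 genes had a smaller difference. Both values lay below the 95th percentile of the negative controls, so it has no fold against that floor, and centring on the hybridization controls left a difference of -0.27. Cxcl12 is known chiefly from stromal and endothelial cells, which the CD45+CD11b+ gate is meant to leave out. Of 4 fibroblast genes above the floor, 2 were MerTK−-enriched, and Dcn, which encodes decorin, was 8.91 in MHCII+ macrophages and 10.7 in MerTK− macrophages. Of 6 endothelial genes above the floor, all 6 were lower in MHCII+ macrophages and 2 by at least 2-fold, with a median difference of -0.74. Cdh5, the cadherin of endothelial junctions, was 9.26 in MHCII+ macrophages and 10.3 in MerTK− macrophages. Heart muscle genes, also outside the gate, lay further to this side, with all 6 above the floor lower in MHCII+ macrophages, 4 of them MerTK−-enriched and a median difference of -1.19. Myl2, a ventricular myosin light chain, was 4.62-fold higher in MerTK− macrophages. The part of these cells in the Cxcl12 value was not tested. Its receptor gene Cxcr4 was high on both arrays, at 16.5 in MHCII+ macrophages and 16.9 in MerTK− macrophages, a 1.24-fold gap, and the scavenger receptor gene Ackr3 was below the floor on both.

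**Figure D3:**
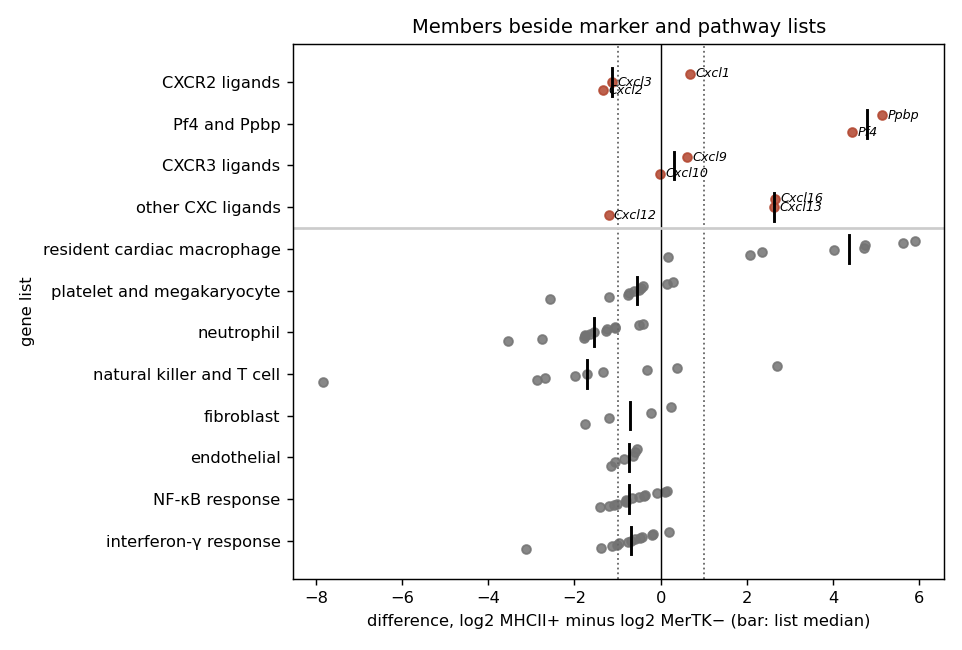
Difference, log2 MHCII+ minus log2 MerTK− (horizontal axis), of each gene above the floor in the member groups (upper rows, named points) and in marker and pathway lists (lower rows), with the median of each row as a black bar and dotted lines at a 2-fold gap. The median of the resident macrophage genes (4.36) lies on the side of Pf4 and Ppbp. The medians of the other marker and pathway lists drawn lie on the side of Cxcl2, Cxcl3 and Cxcl12 in the deposited values. They run between -1.71 (natural killer and T cell genes) and -0.55 (platelet genes). Cell type lists not drawn lie on both sides. Class II (5.38), macrophage (2.81), dendritic cell (2.55) and B cell genes (1.96) lie on the side of Pf4 and Ppbp. Monocyte (-0.28) and heart muscle genes (-1.19) lie on the other. Which cells the RNA of the members came from was not tested.

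Neighbouring genes on chromosome 5 differed in direction. In the order given by the NCBI table of GRCm38.p6, the first stretch runs Cxcl5, Ppbp, Pf4, Cxcl3, Cxcl15, Cxcl1 and Cxcl2. Ppbp and Pf4 lie side by side, and their differences were 5.15 and 4.45. Next to Pf4 lies Cxcl3, at -1.13, and at the far end Cxcl1 and Cxcl2 are neighbours at 0.69 and -1.34. The genes among them that were not members were low. Cxcl5, an attractant of neutrophils from epithelium and platelets, was below the floor at 3.23 in MHCII+ macrophages and 3.93 in MerTK− macrophages, and Cxcl15, known from lung epithelium, was 3.28 in MHCII+ macrophages and 4.78 in MerTK− macrophages, at least 1.47-fold higher in MerTK− macrophages. In the other stretch, Cxcl9 and Cxcl10 are separated by Art3, and the differences of these 3 genes were 0.62 for Cxcl9, 0.77 for Art3 and -0.01 for Cxcl10. Of the CXC ligands elsewhere that were not members, Cxcl14 was 4.71 in MHCII+ macrophages and 4.88 in MerTK− macrophages, and Cxcl17 was below the floor on both arrays.

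**Figure D4:**
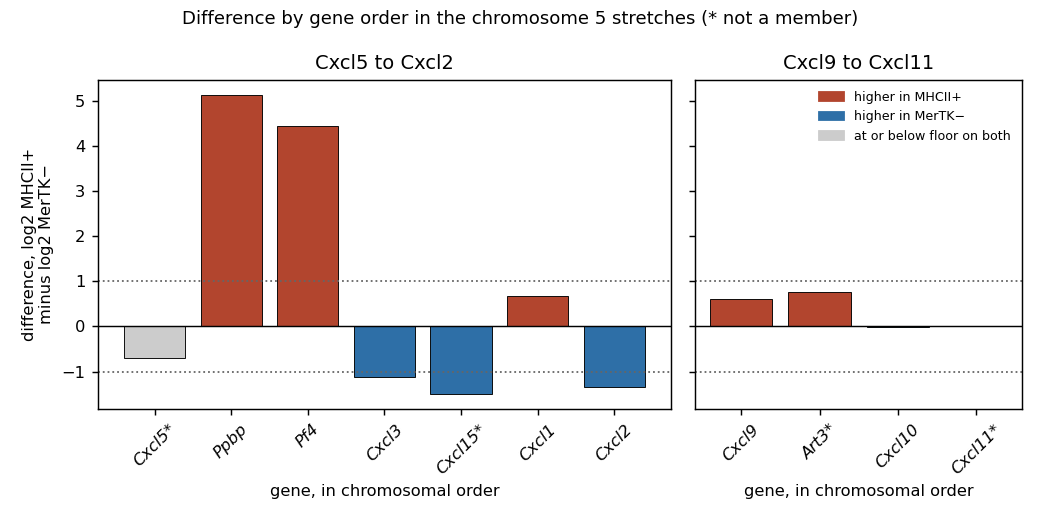
Difference, log2 MHCII+ minus log2 MerTK− (vertical axis), of the genes in 2 stretches of chromosome 5, in chromosomal order without scale, with dotted lines at a 2-fold gap. In the left panel Ppbp and Pf4 (5.15 and 4.45) stand beside Cxcl3 (-1.13), and in the right panel Cxcl10 (-0.01) and Cxcl11 (0.01, below the floor) have bars too low to see.

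The arrays bear on these values in several ways. All 7 measured class II genes were MHCII+-enriched, as the label has it, with H2-Aa at 16.7 in MHCII+ and 8.39 in MerTK− macrophages. Mertk was 8.77 in MHCII+ macrophages and 5.97 in MerTK− macrophages, and among the macrophage genes Csf1r was one of the 3 less than 2-fold apart, at 16.2 in MHCII+ and 15.5 in MerTK− macrophages. Of the members, Cxcl2, Cxcl3, Cxcl10 and Cxcl16 were above the 95th percentile of the negative-control probe sets on both arrays, Pf4 and Ppbp were above it only in MHCII+ macrophages, and Cxcl1, Cxcl9, Cxcl12 and Cxcl13 were below it on both. The 5222 negative-control probe sets had differences between -10.6 and 8.41, with a median of -0.24. That full range is wider than the gap of any member. The highest value of the MerTK− array, 19.4, was shared by 6 probe sets and is a ceiling that Cxcl2 did not reach. The 4 hybridization controls, which are added to the sample in fixed amounts, had differences between -1.14 and -0.75, so a scaling on them shifts every difference upward and takes the median of all genes above the floor to 1.08, while 12 housekeeping genes had a median difference of 0.39.

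The sides on which Pf4, Ppbp, Cxcl13 and Cxcl16 lay were the same under each of 5 scalings of the arrays, and all stayed at least 2-fold apart. Cxcl2, Cxcl3 and Cxcl12 kept their side under each scaling but were under 2-fold when the hybridization controls were set equal, with differences of -0.41 for Cxcl2, -0.19 for Cxcl3 and -0.27 for Cxcl12. Cxcl1 and Cxcl9 were higher in MHCII+ macrophages under each scaling and passed 2-fold only under that one, at 1.62 for Cxcl1 and 1.55 for Cxcl9. The side of Cxcl10 was not settled, since its difference ran between -0.40 and 0.92 with the scaling. Medians of the marker and pathway lists are given as deposited. Setting the hybridization controls equal subtracts -0.93 from each difference. That is enough to turn the medians of the platelet, monocyte, fibroblast, endothelial, NF-κB and interferon-γ genes positive. The medians of the neutrophil, natural killer and T cell, and heart muscle genes stay negative.

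**Figure D5:**
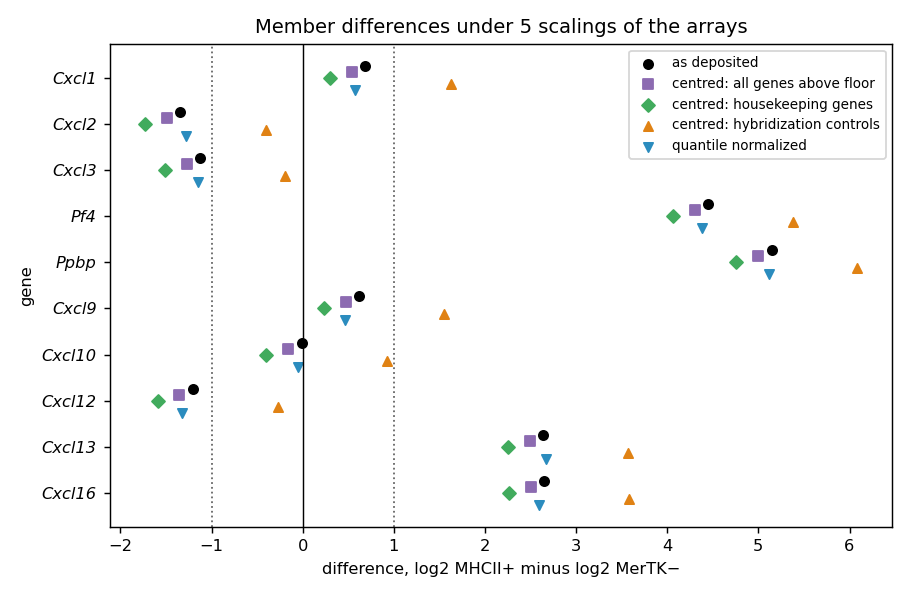
Difference, log2 MHCII+ minus log2 MerTK− (horizontal axis), of each member under 5 scalings of the arrays, with dotted lines at a 2-fold gap. Pf4, Ppbp, Cxcl13 and Cxcl16 stay beyond the right dotted line in every scaling, while centring on hybridization controls (triangles pointing up) moves Cxcl2, Cxcl3 and Cxcl12 inside the left one.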

How the data were processed

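RNA of MHCII+ macrophages and of MerTK− macrophages was measured on 1 Clariom S array each. The deposited values are log2 intensities, made by the authors with the Robust Multiarray Average at default settings with global scaling. Affymetrix Expression Console is the tool in the submitters' processing notes, where it has no version. The series text names an older array, but the probe set names are those of Clariom S. The array values of 337 and 331 probe sets exceed 16, the log2 ceiling of a 16-bit scanner, so folds hold on the deposited scale only.

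Of 28846 probe sets, 22206 stand for transcripts and 19572 carry 1 symbol, matched by Entrez ID to the NCBI table of GRCm38.p6, while 2634 are unnamed here. Where a gene had several probe sets (55 genes), the one of highest mean was taken. All members, the receptors other than Ackr1 and the pathway genes at least 2-fold apart were named by rule. The rule also took the highest markers of each cell type, but not all of these are given (Clec1b, Lcn2, Retnlg and Kdr, for example, are not). Others named beside a member (such as the platelet genes below the floor) were chosen after their values were seen. The members, lists and motifs were chosen with earlier results of these data known. Scripts (Python 3.11.15, pandas 2.3.3, numpy 2.4.6) were tested on simulated data. No test, p-value or error could be given with 1 array a population. The number of arrays limits the precision. Alternatives were 4 other scalings, 3 other treatments of low values, 2 other fold thresholds and the mean of probe sets.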

Additional observations from a re-analysis of the deposited data

How the results depend on the processing

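With the 95th percentile of the negative controls as the floor, 2 members (Pf4 and Cxcl16) and not 4 were MHCII+-enriched, because Ppbp then differed by 0.02 and Cxcl13 lay below that floor on both arrays, and 2 and not 3 were MerTK−-enriched. Cxcl1, Cxcl9 and Cxcl12 had no value there for the same reason, and the median of Pf4 and Ppbp was 1.88. With hybridization controls set equal, 6 members and not 4 were MHCII+-enriched, 0 and not 3 were MerTK−-enriched, and the medians were -0.19 for the CXCR2 ligands and 1.24 for the CXCR3 ligands. At a fold threshold of 1.5, 6 members passed towards MHCII+ and 3 towards MerTK−. At a fold threshold of 3, the members past it were the same 4 towards MHCII+ and 0 towards MerTK−. Of the counts and medians under the alternatives, 47 kept their side of the 2-fold threshold or, for counts, stayed within 1.5 times. Of the rest, 2 medians crossed the threshold and 3 counts fell further. By this rule a count of 6 in place of 4 was kept. Each member had 1 probe set, so the mean of probe sets could not change any of these values. With no replicate spread, a difference was taken as kept where it stayed on its side of the 2-fold threshold. Over all genes above the floor, the numbers of MHCII+-enriched and MerTK−-enriched genes were 1407 and 725 as deposited, 1045 and 1005 centred on all genes, 638 and 1681 centred on housekeeping genes, 1266 and 791 after quantile normalization, and 5777 and 70 centred on hybridization controls. No paired analysis was possible because there was 1 array a population. The level of Cxcl1, Cxcl9, Cxcl12 and Cxcl13 was limited by array background.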
